A study of Mus musculus with 15 samples.

Results

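Kupffer cells, macrophages that live in the sinusoids of the liver, were compared here between obese and lean mice at 14 weeks of age. It rests on the 8 libraries labelled 14 weeks, of 15 in the series: 4 from ob/ob mice and 4 from C57BL/6J mice, called wild type below. The labels give cell type, strain and age and name no other allele or treatment. They do not say how the cells were isolated or whether each library came from a separate animal, so a p-value sets the difference only against the spread among libraries of a group, and that spread may be technical. RNA was sequenced as poly(A)-selected, stranded libraries, and the deposited value of each locus is FPKM, fragments scaled for transcript length and for the number of mapped fragments. The 4 ob/ob libraries carry one flow cell lane in their labels (lane 6) and the 4 wild type libraries another (lane 5), so genotype and lane cannot be told apart.

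Kupffer cells line the liver sinusoids, where they clear bacteria, ageing red cells, immune complexes and modified lipoproteins from portal blood. They are maintained largely by local self-renewal, and bone marrow monocytes can enter the niche and take on much of the same identity when resident cells are lost. The ob/ob strain lacks functional leptin, the satiety hormone made by adipocytes, and develops marked obesity, a fatty liver and insulin resistance. Lep itself was not analysed here. Lepr, the leptin receptor, was at 14.7 ± 2.77 FPKM in ob/ob and 13.5 ± 1.67 in wild type (SD, n = 4 libraries each) and its difference missed the threshold (adjusted p = 0.645).

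Kupffer cell markers were abundant in both groups. Clec4f, a C-type lectin made by Kupffer cells, was at 1562, 1557, 2433 and 2223 FPKM in ob/ob libraries 1 to 4 and at 3253, 2482, 2145 and 2398 FPKM in wild type libraries 1 to 4. Vsig4, a complement receptor, and Cd5l, a secreted lipid-regulating protein, lay between 604 and 1462 FPKM and between 1963 and 4051 FPKM over the 8 libraries. Other liver cells were also present. The 36 hepatocyte markers summed to 4883 to 10912 FPKM in ob/ob and 1365 to 2833 FPKM in wild type, and 23 of them rose. The 26 sinusoidal endothelial markers summed to 1940 to 4778 FPKM in ob/ob and 3137 to 7587 FPKM in wild type, and 24 of 26 had a negative change. ob/ob library 2 held the most hepatocyte signal and wild type library 1 the least endothelial signal of its group. These are bulk samples, in which fewer cells of a type and less RNA per cell cannot be told apart.

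**Figure D1:**
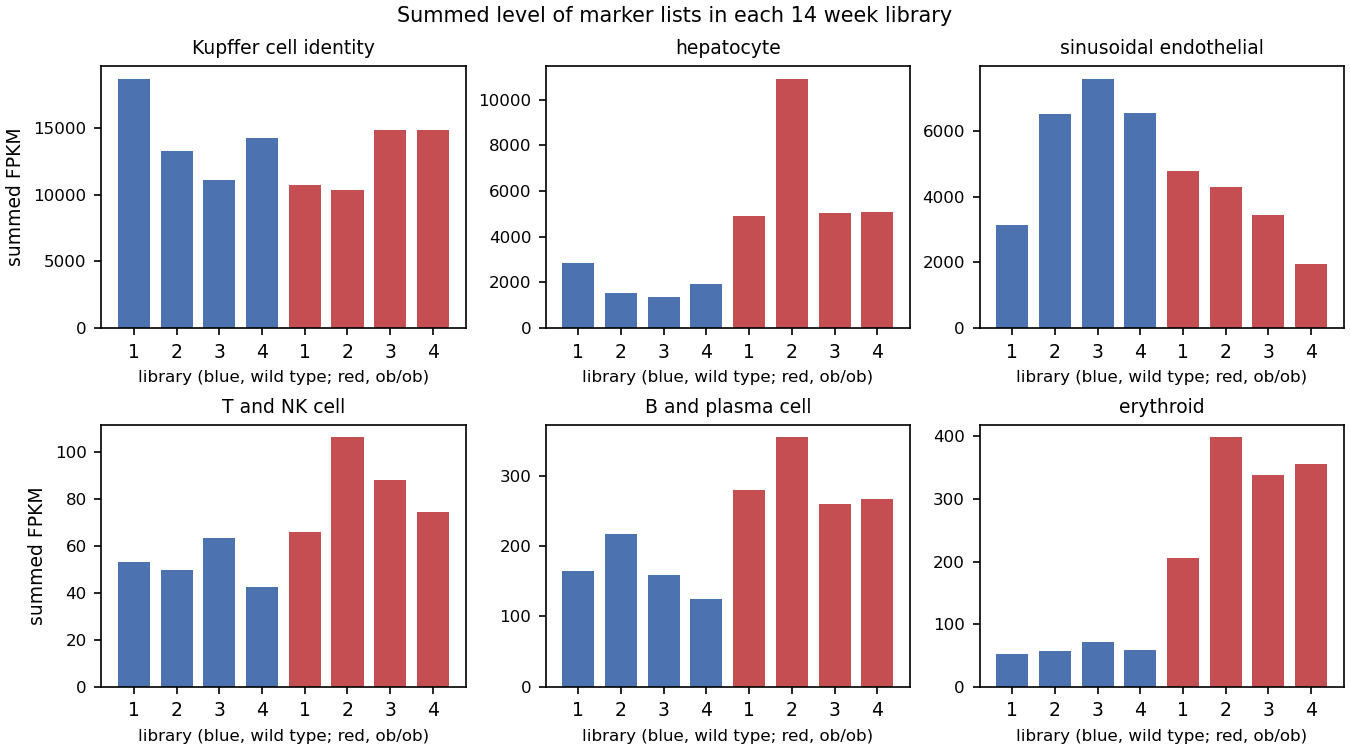
Bars give the summed FPKM of 6 marker lists in each library (x axis, libraries 1 to 4; blue, wild type; red, ob/ob). The hepatocyte, B cell, T and NK cell and erythroid sums of all 4 ob/ob libraries lie above those of all 4 wild type libraries, while the Kupffer cell and endothelial sums overlap.

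Of 15897 loci in the table, 11612 averaged 1 FPKM or more and were tested on log2(FPKM + 1) with limma. At a Benjamini-Hochberg adjusted p of 0.05, 1548 loci passed (13.3% of those tested), 763 of them higher in ob/ob (6.57%) and 785 lower (6.76%). Rises and falls differed in size. The median log2 change was 1.02 among the rises and -0.42 among the falls, 394 of the rises and 31 of the falls were at least 2-fold, and 754 falls were smaller than 2-fold (96.1% of the falls and 6.49% of the loci tested). Rises of less than 2-fold numbered 369 (48.4% of the rises). Folds here are of FPKM + 1, which shrinks the changes of loci at low levels. With a pseudocount of 0.1 in place of 1, 734 of 787 falls were smaller than 2-fold. The median wild type level was 15.1 FPKM among the falls and 10.9 FPKM among all loci tested. That of the rises was 2.19 FPKM. Of the rises, 180 loci were under 1 FPKM in wild type and passed the filter only through their ob/ob level, and another 350 were at 1 to 5 FPKM.

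The falls depended on scaling. The summed FPKM of the libraries ran from 528155 to 574869, and the 4 most abundant loci (Eef1a1, Ftl1 and a pair of mitochondrial loci) took 19.2 to 22.1% of it in ob/ob and 14.9 to 18% in wild type. Dividing each library by the median ratio of its loci to their geometric mean over the 8 libraries gave factors of 0.945 to 0.996 for ob/ob and 1.008 to 1.070 for wild type, and moved the median log2 change of all tested loci from -0.091 to -0.015. After this scaling 920 loci were higher (7.92% of those tested) and 368 lower (3.17%), so that rises made up 71.4% of the calls in place of 49.3%. All 368 of these falls were also among the 785, and 347 of them were smaller than 2-fold in the deposited values as well. The other 417 falls no longer passed, and 0 of them turned positive. Changes below are those of the deposited values, with the scaled value given where the call differs. Counts in gene lists are to be read beside the shares over all loci tested, 6.57% higher and 6.76% lower (7.92% and 3.17% scaled).

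**Figure D2:**
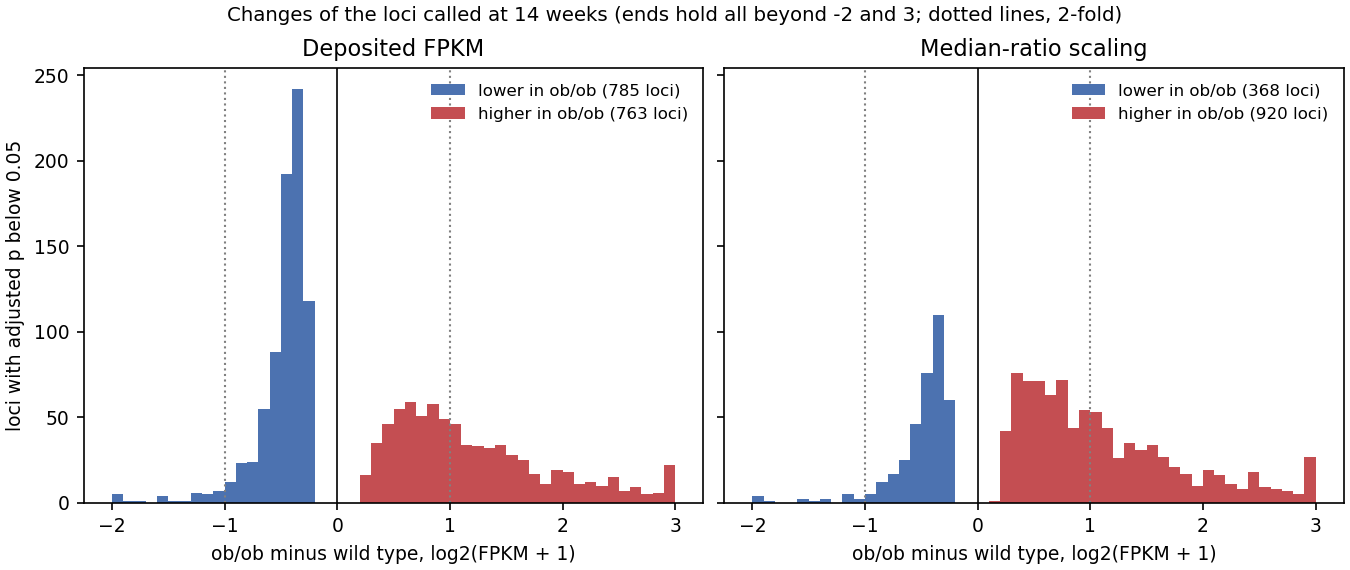
Histograms of the log2 change (x axis, ob/ob minus wild type on log2(FPKM + 1)) of the loci that passed the test, with the number of loci on the y axis. Falls (blue) pile up between 0 and -1 in both panels, and fewer of them pass with median-ratio scaling (368 in place of 785), while the rises (red) reach far beyond 2-fold.

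The share of genes that fell was higher in each higher class of wild type level, while the share that rose was highest in the lowest class. The classes were cut on the wild type level, which is also 1 side of the comparison. Low classes therefore lean towards rises and high classes towards falls, and the trend is only a description. The minimum mean of 1 FPKM and the 1 added to FPKM also act most on low loci. Among 3158 loci at 1 to 5 FPKM in wild type, 11.1% rose and 4.21% fell. Among 3091 loci at 20 to 100 FPKM, 2.14% rose and 8.06% fell, and among 791 loci above 100 FPKM, 3.03% rose and 8.85% fell. With median-ratio scaling the shares that fell were 1.93%, 3.82% and 4.68% in the same 3 classes, and the shares that rose were 11.9%, 3.66% and 5.94%. The 289 loci under 1 FPKM in wild type passed the filter only through their ob/ob level, so that 62.3% of them rose and 0% fell.

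In 744 of the 763 rises and 760 of the 785 falls the 4 ob/ob libraries did not overlap the 4 wild type libraries, as in 2646 of all 11612 loci tested (22.8%). Leaving out ob/ob library 1, 2, 3 or 4 left 433, 370, 482 or 365 falls, and leaving out wild type library 1, 2, 3 or 4 left 940, 375, 675 or 376. Under both scalings and all 8 of these omissions, 255 falls and 487 rises passed. With the mean log2 level of the hepatocyte markers as a covariate, only 8 loci passed: Mmp12, Cd63, Il1rn, Atp6v0d2, Cyp4a14 and Pbk higher, Serpina1e and Ces3b lower (1165 loci had an unadjusted p under 0.05). Cd63, Atp6v0d2 and Cyp4a14 are among the loci that passed the filter only through their ob/ob level. The difference between the genotypes made up 75.2% of the variance of the hepatocyte score. With it in the fit, 785 of 785 falls kept a negative sign, with a median of -0.43 in place of -0.42, while single genes moved more (the Prmt2 locus from -3.40 to -1.28, Serpina1e from -4.12 to -5.81). The rises kept their sign in 736 of 763 cases, with a median of 0.73. With the endothelial score as a covariate, chosen after the data were seen, 1639 loci were lower (14.1% of those tested) and 1021 higher (8.79%), among them 695 of the 785 falls and 717 of the 763 rises.

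The core identity genes of Kupffer cells were mostly below wild type. Of 22 tested, 0 rose and 3 fell (2 with median-ratio scaling), beside 6.57% and 6.76% of all loci tested (3.17% fell when scaled). In the list 18 had a negative change and the median was -0.32 (-0.23 scaled), beside -0.091 over all loci. Cd163, the receptor for haptoglobin-bound haemoglobin (chr6:124304656-124330527, plus strand, mm10), was at 138, 126, 185 and 189 FPKM in ob/ob and 386, 284, 218 and 305 FPKM in wild type. The groups did not overlap, and Cd163 fell by 0.89 ± 0.20 on the log2 scale (SE; adjusted p = 0.0226). The call was lost without ob/ob library 1 or 2 or wild type library 2 or 4 (adjusted p of 0.0561 to 0.0631). Cdh5, VE-cadherin, counted both as a Kupffer cell and as an endothelial gene, was at 224, 208, 237 and 202 FPKM against 283, 295, 277 and 304 FPKM and fell by 0.41 ± 0.08 (adjusted p = 0.0117). The third fall was a locus that merges the guanylate-binding protein genes Gbp4, Gbp8 and Gbp9, whose reads were not separated (log2 change -0.35, adjusted p = 0.0163, and 0.059 scaled). Without wild type library 4, 1 identity gene was called lower.

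Most of the other identity genes had lower means that missed the threshold. Clec4f changed by -0.41 ± 0.20 (adjusted p = 0.192), Timd4, a phosphatidylserine receptor of long-lived resident macrophages, by -0.38 ± 0.19 (adjusted p = 0.222), and Vsig4 by -0.25 ± 0.28 (adjusted p = 0.569). Folr2, the folate receptor beta, was at 607, 557, 884 and 774 FPKM against 1284, 954, 936 and 948 FPKM. Its groups did not overlap, with a change of -0.56 ± 0.17 (adjusted p = 0.0702). Omitting ob/ob library 3 brought its adjusted p to 0.0478. Adgre1, the F4/80 antigen, was at 446 ± 84.7 and 428 ± 152 FPKM, Csf1r, the receptor for the macrophage growth factor CSF1, at 1037 ± 214 and 1208 ± 376, and Marco, a scavenger receptor, at 73.2 ± 0.942 and 77.6 ± 27.1 (ob/ob and wild type, mean ± SD, n = 4). Marco did not pass and its change turned from -0.01 to 0.07 with scaling.

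The spread of these genes moved with the endothelial markers. In wild type library 1 the summed Kupffer cell list was highest (18685 FPKM) and the endothelial list lowest (3137 FPKM), and in wild type library 3 the order was the opposite (11084 and 7587 FPKM). With the endothelial score in the fit, 11 of the 22 identity genes fell, beside 14.1% of all loci. In that fit Clec4f changed by -0.65 (adjusted p = 0.0216), Folr2 by -0.75 (adjusted p = 0.0115) and Cd163 by -1.14 (adjusted p = 0.00323), while Cd5l (-0.05) and Adgre1 (-0.19) did not pass and had been positive without it. The part of endothelial RNA in these results was not tested otherwise.

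Among 21 transcription factors of the Kupffer cell programme, 2 fell and 3 rose under both scalings. Maf, which restrains macrophage self-renewal, was at 55.1, 53.4, 52.8 and 40.8 FPKM in ob/ob and 69.2, 84.9, 85.5 and 83.7 FPKM in wild type, a fall of 0.67 ± 0.12 with no overlap (adjusted p = 0.00826). Klf4, a factor of monocyte and alternatively activated macrophage differentiation, was at 34.7, 34.5, 30.9 and 29.9 FPKM against 94.2, 73.7, 45.6 and 55.2 FPKM and fell by 0.98 ± 0.20 (adjusted p = 0.0172). The Klf4 call was lost when wild type library 2 (adjusted p = 0.0531) or ob/ob library 4 (0.05, just over the threshold) was omitted. Pparg, the lipid-sensing nuclear receptor, was at 15.5, 14.8, 12.8 and 16.1 FPKM against 8.93, 7.54, 7.09 and 6.00 FPKM and rose by 0.92 ± 0.12 (adjusted p = 0.00274). Atf5, a stress-response factor (log2 change 1.01), and Runx3, a Runt-family factor (0.51), also rose. Nr1h3, the oxysterol receptor LXR alpha, Spic, a factor of haem-handling macrophages, and Id3 had changes of -0.44, -0.23 and -0.33 and did not pass (adjusted p of 0.0881, 0.297 and 0.134). Nr1h3 shares its locus with the predicted gene Gm13783 and had an adjusted p of 0.0273 once wild type library 3 was omitted.

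Lectin and scavenger receptors moved in both directions: of 25 tested, 6 rose and 3 fell under both scalings. Cd209f, a DC-SIGN-related lectin of liver macrophages (chr8:4102787-4105835, minus strand, mm10), was at 1.49, 0.904, 0.461 and 0.957 FPKM in ob/ob and 13.5, 9.70, 6.61 and 11.5 FPKM in wild type. It fell by 2.52 ± 0.22 with groups far apart (adjusted p = 0.00129). Its neighbour in the family, Cd209b, was at 1.88, 1.67, 1.43 and 0.821 FPKM against 3.42, 4.93, 8.15 and 5.29 FPKM and fell by 1.37 ± 0.23 (adjusted p = 0.00726). Mrc1, the mannose receptor, a gene of Kupffer and of sinusoidal endothelial cells, was at 311, 295, 354 and 287 FPKM against 415, 419, 435 and 442 FPKM and fell by 0.46 ± 0.09 (adjusted p = 0.0112). All 3 falls passed in each of the 8 omissions of a library and with the endothelial score in the fit.

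The 6 that rose were Clec4e, Clec4d, Clec4n, Clec7a, Colec12 and Cd36. Clec4e (Mincle) was at 13.2, 8.93, 5.15 and 6.55 FPKM against 2.03, 1.98, 1.16 and 1.08 FPKM, a rise of 1.83 ± 0.26 (adjusted p = 0.0038), and its partner Clec4d rose by 1.46 ± 0.16 (adjusted p = 0.00182). Clec7a (Dectin-1) was far more abundant, at 296, 307, 342 and 433 FPKM against 206, 171, 121 and 143 FPKM, and rose by 1.11 ± 0.18 (adjusted p = 0.00701). Cd36, the fatty acid and oxidised lipoprotein receptor, was at 763, 690, 772 and 724 FPKM against 215, 267, 485 and 328 FPKM and rose by 1.25 ± 0.22 (adjusted p = 0.00932). Msr1, the class A scavenger receptor, was at 167 ± 18.9 and 195 ± 11.2 FPKM and did not pass (adjusted p = 0.152). C1qa, a complement component made by Kupffer cells, had a change of -0.43 and did not pass either (adjusted p = 0.155).

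Cxcl13, Ptgis, Ltc4s and Tbxa2r were among the 10 largest falls without overlap. Cxcl13, the B cell-attracting chemokine, was at 76.5, 47.7, 67.2 and 29.1 FPKM in ob/ob and 196, 402, 238 and 334 FPKM in wild type, a fall of 2.42 ± 0.33 (adjusted p = 0.00349). Ptgis, prostacyclin synthase, was at 3.98, 4.45, 4.50 and 4.55 FPKM against 38.8, 24.6, 19.2 and 16.5 FPKM and fell by 2.19 ± 0.23 (adjusted p = 0.00143). Ltc4s, leukotriene C4 synthase, was at 34.5, 33.8, 31.2 and 21.7 FPKM against 137, 60.3, 105 and 76.3 FPKM and fell by 1.57 ± 0.26 (adjusted p = 0.00683). The groups of these 3 genes did not overlap, and the calls held with each library left out. Tbxa2r, the thromboxane receptor, fell by 1.29 ± 0.33 (adjusted p = 0.0371). It missed the threshold with scaling (adjusted p = 0.0596) and with 1 of 5 libraries left out (ob/ob 2 or 3 or wild type 2, 3 or 4; adjusted p of 0.0592 to 0.0984).

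Htra1, a secreted serine protease, was at 0.574 to 1.06 FPKM in ob/ob and 2.42 to 10.9 FPKM in wild type (log2 change -1.88), and Tox2, an HMG-box factor, at 0.248 to 0.737 and 2.14 to 4.48 FPKM (-1.58). In both, as in Cd209b and Tbxa2r, the lowest wild type value was that of library 1, the one with the least endothelial signal. Cxcl13, Maf, Mrc1, Txnip, Tcn2 and Bst2 were also lowest there, and lowest in ob/ob library 4, which had the least endothelial signal of its group. Ptgis, Ltc4s and Fpr1 were instead highest in wild type library 1. The part of endothelial RNA in these falls was not tested beyond the fit with the endothelial score. Serpina1e, one of a cluster of near-identical alpha-1-antitrypsin genes, had the largest fall: 0.742, 1.89, 0.136 and 0.105 FPKM against 45.7, 15.2, 27.8 and 25.3 FPKM (log2 change -4.12 ± 0.39, adjusted p = 0.00132). It is a hepatocyte gene that went against the other hepatocyte markers, and reads of its copies may not be separable. The Prmt2 locus, which shares its reads with the microRNA Mir678, was at 3.67 to 4.85 FPKM in ob/ob and 6.86, 157, 181 and 47.7 FPKM in wild type. Its call (adjusted p = 0.0399) was lost with scaling (0.0537) and without any 1 of 7 libraries, all but wild type library 1 (0.0774 to 0.0971).

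**Figure D3:**
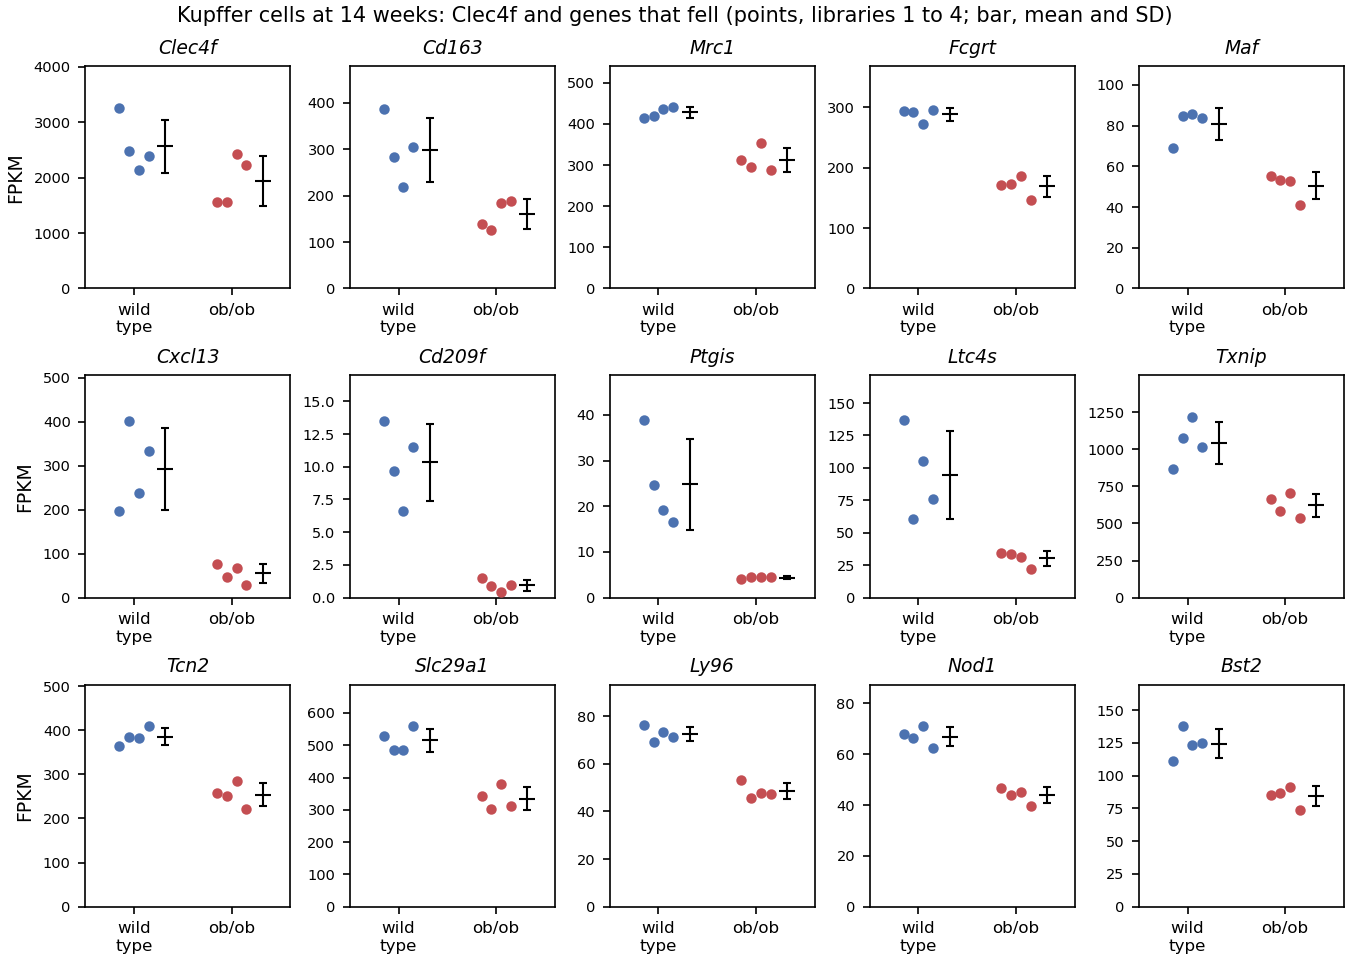
FPKM (y axis, from 0) of Clec4f and of 14 genes that fell, in each wild type (blue) and ob/ob (red) library; the black bar is the mean with its SD (n = 4). Clec4f overlaps between the groups, while the 14 genes do not.

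Falls of less than 2-fold were 754 of the 1548 calls in the deposited values and 351 of 1288 with median-ratio scaling. Among falls of less than 2-fold that passed under both scalings without overlap, 309 loci had a gene name, and the 20 most abundant in wild type ranged from Txnip at 1043 ± 144 FPKM to the Ifi203 locus at 184 ± 16.2 FPKM. Txnip, the glucose-responsive inhibitor of thioredoxin, was at 663, 585, 705 and 535 FPKM in ob/ob and 865, 1074, 1214 and 1017 FPKM in wild type and fell by 0.74 ± 0.13 (adjusted p = 0.00956). Fcgrt, the neonatal Fc receptor that recycles IgG and albumin (chr7:45092990-45103851, minus strand, mm10), was at 171, 172, 186 and 146 FPKM against 293, 292, 272 and 295 FPKM and fell by 0.77 ± 0.09 (adjusted p = 0.00199). Every ob/ob value of both genes was below every wild type value, and the libraries of a group lay close together.

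Another 4 of the 20 were Slc29a1, Tcn2, Tmem176b and Fpr1. Slc29a1, a nucleoside transporter, was at 344, 303, 380 and 311 FPKM against 528, 486, 486 and 560 FPKM (fell by 0.62 ± 0.10, adjusted p = 0.00573). Tcn2, the vitamin B12 carrier transcobalamin, was at 258, 250, 286 and 222 FPKM against 365, 384, 382 and 410 FPKM (fell by 0.60 ± 0.09, adjusted p = 0.00516). Tmem176b, an ion channel-like protein of immature dendritic cells and macrophages, was at 126, 118, 133 and 100 FPKM against 236, 263, 182 and 222 FPKM (fell by 0.91 ± 0.13, adjusted p = 0.00423). Fpr1, the receptor for bacterial formyl peptides, was at 181, 169, 180 and 168 FPKM against 354, 242, 241 and 302 FPKM (fell by 0.69 ± 0.13, adjusted p = 0.0116). These 4 genes kept their call with each library left out, as did Txnip, Fcgrt, Mrc1, Cdh5 and the Ifi203 locus.

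The other members of the 20 were closer to the threshold. Ccl24 (eotaxin-2, an eosinophil attractant) fell by 0.76, Jun by 0.68, Dmpk (a serine/threonine kinase) by 0.61, Wsb1 (a ubiquitin ligase adaptor) by 0.60, Lst1 (a myeloid adaptor) by 0.58, Ninj1 (an adhesion protein that ruptures dying cells) by 0.49, Blvrb (biliverdin reductase B) by 0.48, and Rasgrp2 (a Rap activator), Aldh2 (mitochondrial aldehyde dehydrogenase) and the locus of Hsp90b1 (an endoplasmic reticulum chaperone) by 0.43 each. Their adjusted p ran from 0.0179 for Hsp90b1 to 0.0395 for Dmpk. Each lost its call in 1 or more of the omissions: Hsp90b1 without wild type library 4 (adjusted p = 0.0508), Ccl24 without ob/ob library 1 or wild type library 2 (0.0529 and 0.0531), Jun in 3, and the others in 5 or 6 of the 8, with adjusted p of at most 0.0951. All of them passed with the endothelial score in the fit, where Ccl24 changed by -0.99, Jun by -0.84 and Dmpk by -0.83.

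Few innate sensing genes passed. Of 29 genes of Toll-like receptor signalling, 3 fell and 1 rose, beside 6.76% and 6.57% of all loci tested. With scaling 2 fell and 2 rose, and without wild type library 1 3 rose. The median of the list was -0.09, beside -0.091 over all loci, so the list as a whole did not stand apart. Ly96, the MD-2 subunit that binds lipopolysaccharide beside TLR4, was at 53.3, 45.7, 47.6 and 47.1 FPKM in ob/ob and 76.1, 69.3, 73.2 and 71.3 FPKM in wild type and fell by 0.57 ± 0.07 (adjusted p = 0.00241). Nod1, a cytosolic peptidoglycan sensor, was at 46.7, 44.1, 45.1 and 39.6 FPKM against 68.0, 66.2, 71.2 and 62.3 FPKM and fell by 0.60 ± 0.07 (adjusted p = 0.00262). Both groups were tight and apart. The other lipopolysaccharide receptor genes did not pass: Tlr4 was at 35.3 ± 2.75 and 36.9 ± 9.40 FPKM, with a change of -0.03 that became 0.05 with scaling, and Cd14 at 121 ± 18.8 and 150 ± 47.1 FPKM (adjusted p = 0.402). Tlr2 had a change of -0.31 (adjusted p = 0.0378, and 0.131 scaled), while Tlr1, its partner for lipopeptides, rose by 0.51 ± 0.10 (adjusted p = 0.015).

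Of 20 NF-kB subunits and inhibitors, 3 fell and 0 rose (1 and 1 scaled). Over all loci tested 6.76% fell and 6.57% rose (3.17% and 7.92% scaled). Bcl3, a nuclear co-regulator of the p50 and p52 subunits, was at 37.6, 39.5, 31.4 and 34.2 FPKM against 48.1, 53.9, 54.0 and 49.3 FPKM and fell by 0.52 ± 0.09 (adjusted p = 0.0077). Nfkbie and Rela passed only in the deposited values (log2 changes -0.42 and -0.26, adjusted p of 0.0849 and 0.156 with scaling). Of 18 inflammasome and cell death genes, 17 had a negative change (13 scaled) and the median was -0.18. Of the 18, 3 fell (2 scaled), beside the same shares of all loci. Beside Txnip these were Nlrp1b, a sensor of bacterial proteases (log2 change -0.45), and Casp1, the caspase that matures interleukin-1 beta (-0.30, adjusted p = 0.0343, and 0.0606 scaled). With 1 library left out, 1 or 2 inflammasome genes and 1 to 3 NF-kB genes were called lower. The inflammasome count fell to 1 without ob/ob library 1, ob/ob library 2 or wild type library 2, and the NF-kB count to 1 without any of ob/ob libraries 2 to 4 or wild type library 2. With the endothelial score in the fit 11 of the 18 inflammasome genes fell, beside 14.1% of all loci. The rise in falls was not particular to this list. In that fit 18 of 29 heat shock and immediate early genes, 14 of 38 type I interferon genes and 10 of 29 unfolded protein response genes fell. Of the NF-kB genes 3 of 20 fell, and of the Toll-like receptor genes 5 of 29.

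Of 38 tested genes of the type I interferon response, 6 fell and 0 rose (5 and 1 with median-ratio scaling). Over all loci tested 6.76% fell and 6.57% rose (3.17% and 7.92% scaled). In the list 32 genes had a negative change (27 scaled) and the median was -0.21 (-0.13 scaled). Bst2 (tetherin, which holds budding virus at the membrane) was at 85.6, 86.9, 91.1 and 73.9 FPKM in ob/ob and 111, 138, 123 and 125 FPKM in wild type and fell by 0.55 ± 0.09 (adjusted p = 0.00773). Oas2, a sensor of double-stranded RNA, was at 38.3, 32.5, 37.7 and 42.2 FPKM against 72, 49.2, 59.9 and 53.5 FPKM and fell by 0.62 ± 0.13 (adjusted p = 0.0171). Neither pair of groups overlapped. Ifi205, a member of the interferon-inducible p200 family, was at 8.19, 7.45, 7.46 and 7.45 FPKM against 11.8, 12.2, 9.19 and 12.0 FPKM and fell by 0.50 ± 0.09 (adjusted p = 0.0117). The locus that merges its relatives Ifi203 and Mndal with Gm38050 fell by 0.44, Ifi35 by 0.38 and Stat2, the signal transducer of the receptor, by 0.32 (adjusted p = 0.0277, and 0.0609 scaled). With 1 library left out, 5 to 7 genes of the list were called lower, and Stat2 alone among the 6 lost its own (in 4 of the 8 omissions, adjusted p of 0.0665 to 0.0756).

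The 200 bases before the RefSeq start site (GRCm38.p6) were searched on both strands for the core of the interferon-stimulated response element, a pair of GAAA copies with 2 bases between them. RefSeq promoters were given for 5 of the 6 genes, and 2 held the motif, as did 2.33% of all 27025 promoters of this length. They are printed because these are the falling interferon genes whose promoter carries the element, in capitals: Bst2 at chr8:71537473-71537672 (minus strand) and Ifi205 at chr1:174031756-174031955 (minus strand), 5′ to 3′.
Bst2: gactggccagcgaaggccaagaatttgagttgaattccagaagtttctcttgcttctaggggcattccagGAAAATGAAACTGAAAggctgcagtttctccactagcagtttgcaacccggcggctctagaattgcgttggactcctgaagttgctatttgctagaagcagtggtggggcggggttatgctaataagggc
Ifi205: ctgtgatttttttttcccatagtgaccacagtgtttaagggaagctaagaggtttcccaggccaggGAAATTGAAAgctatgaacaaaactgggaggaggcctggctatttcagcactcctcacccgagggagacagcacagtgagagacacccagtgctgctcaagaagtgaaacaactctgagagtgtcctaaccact
The match in Bst2 is a pair of overlapping copies. A match of letters is a description and does not show that the site was used.

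Antigen presentation by MHC class I, which interferons induce, showed small changes in one direction. All 22 tested genes had a negative change under both scalings (median -0.26, and -0.18 scaled). Of these, 5 fell (2 with scaling) and 0 rose, beside 6.76% and 6.57% of all loci tested (3.17% fell when scaled). Psmb9, an immunoproteasome subunit, was at 88.2, 90.1, 94.9 and 86.9 FPKM against 114, 138, 116 and 113 FPKM and fell by 0.41 ± 0.08 (adjusted p = 0.0145). H2-T23, a non-classical class I gene (Qa-1), was at 105, 103, 113 and 96.8 FPKM against 139, 164, 126 and 140 FPKM and fell by 0.44 ± 0.09 (adjusted p = 0.0194). The groups were separate in both genes. Tap2, a peptide transporter, H2-T24 and Psmb10 passed only in the deposited values (log2 changes -0.41, -0.59 and -0.35, with adjusted p of 0.0651, 0.0661 and 0.105 scaled). The H2-T genes are similar in sequence, so reads may be shared between them. Psmb9 kept its call in each omission of a library, whereas the count of 5 dropped to between 1 and 3 without ob/ob library 1, 2, 3 or 4 or wild type library 2 or 4.

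The interferon gamma list, which shares Psmb9, Psmb10 and Tap2 with the class I list, had 6 falls among 24 tested (1 with scaling, when 1 gene rose). Its median was -0.24 (-0.19 scaled). Over all loci tested 6.76% fell and 6.57% rose (3.17% and 7.92% scaled). Nlrc5, the transactivator of class I genes, was at 14.6 to 17.7 FPKM against 20.6 to 28.4 FPKM (log2 change -0.43, adjusted p = 0.0397, and 0.101 scaled). The 6 falls became 1 to 3 without any of ob/ob libraries 1 to 4 or wild type libraries 2 and 4. Of 17 MHC class II genes tested, 1 rose and 0 fell (2 and 0 scaled; median 0.13), and the riser H2-DMb2, a peptide-loading chaperone, had a change of 0.43 ± 0.11 (adjusted p = 0.0412) that was lost in 7 of the 8 omissions, all but wild type library 1 (adjusted p of 0.0602 to 0.0982).

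Of 29 genes of the unfolded protein response, 5 fell and 0 rose (4 and 0 scaled), beside 6.76% and 6.57% of all loci tested (3.17% fell when scaled). The list median was -0.18 (-0.10 scaled). Dnajb9, a chaperone of the endoplasmic reticulum, was at 49.3, 51.0, 51.5 and 48.2 FPKM in ob/ob and 79.3, 66.8, 86.5 and 64.8 FPKM in wild type and fell by 0.55 ± 0.10 (adjusted p = 0.0096). Atf4, the transcription factor of the integrated stress response, was at 117, 114, 116 and 120 FPKM against 159, 148, 168 and 138 FPKM and fell by 0.38 ± 0.08 (adjusted p = 0.0153). Sdf2l1, a chaperone cofactor, fell by 0.37, and Xbp1, the factor spliced by IRE1, by 0.27 (adjusted p = 0.0268, and 0.0524 scaled). The count was 3 without wild type library 4.

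Of 29 heat shock and immediate early genes, 6 fell and 0 rose (2 and 0 scaled), beside 6.76% and 6.57% of all loci tested (3.17% fell when scaled). The list median was -0.29 (-0.21 scaled). Hsf1, the heat shock factor, was at 12.0, 12.3, 11.7 and 11.3 FPKM against 15.3, 16.7, 16 and 16.4 FPKM and fell by 0.42 ± 0.06 (adjusted p = 0.00398). Jun, a subunit of the AP-1 factor, was at 298, 326, 361 and 338 FPKM against 707, 522, 462 and 460 FPKM. Fosb, its partner, was at 88.3, 126, 111 and 144 FPKM against 393, 246, 153 and 200 FPKM, a change of -1.01 ± 0.28 (adjusted p = 0.0474, and 0.0636 scaled). Jun, Fosb and Egr1 were highest in wild type library 1, and all 3 lost their call in some omissions (Fosb and Egr1 in 6 of the 8). The list's count dropped to between 1 and 3 without any 1 of the 4 ob/ob libraries or wild type library 2 or 3. Immediate early genes also respond to cell isolation, and the part of handling in these values was not tested.

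Against this background of small falls, 3 of the macrophage and cell process lists rose in a majority of their tested members: proliferation, lipid-associated macrophage and monocyte genes. Of 24 lipid-associated macrophage genes, which mark macrophages around lipid-laden or dying cells, 15 rose and 0 fell under both scalings (median 0.97, and 1.05 scaled). Mmp12, the macrophage elastase (chr9:7344381-7369499, plus strand, mm10), was at 417, 382, 447 and 593 FPKM in ob/ob and 17.3, 14.5, 12.1 and 7.14 FPKM in wild type and rose by 5.10 ± 0.25 (adjusted p = 8.19e-05). Gpnmb, a lysosomal glycoprotein (chr6:49036546-49070929, plus strand, mm10), was at 42.3, 45.7, 43.0 and 75.6 FPKM against 1.19, 3.01, 0.477 and 0.187 FPKM and rose by 4.69 ± 0.37 (adjusted p = 0.000633). In both genes the lowest ob/ob value was many times the highest wild type value.

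Cd63, a tetraspanin of late endosomes, was at 13.4, 10.2, 10.1 and 13.5 FPKM against 0.538, 0.635, 0.536 and 0.557 FPKM and rose by 3.02 ± 0.11 (adjusted p = 1.84e-05). Atp6v0d2, a macrophage and osteoclast subunit of the lysosomal proton pump, was at 6.44, 5.74, 5.72 and 9.97 FPKM against 0.290, 0.267, 0.0780 and 0.140 FPKM and rose by 2.71 ± 0.16 (adjusted p = 0.000235). Mmp12, Cd63 and Atp6v0d2 were the 3 genes of this list that also passed with the hepatocyte score in the fit, where their changes were 5.30, 3.29 and 2.96. Cd63 and Atp6v0d2 were under 1 FPKM in every wild type library and passed the filter only through their ob/ob level. Itgax (CD11c) rose by 2.02, Fabp4, a fatty acid-binding protein, by 1.54 and Cd9, a tetraspanin, by 1.41. Trem2, the lipid receptor that gives these cells their usual name, was at 33.2, 32.1, 37.3 and 58.8 FPKM against 31.3, 13.7, 15 and 15.4 FPKM. Its groups were separated by a narrow gap, and its call (log2 change 1.10 ± 0.28, adjusted p = 0.0376) was lost without any 1 of 7 libraries, all but wild type library 1 (adjusted p of 0.0602 to 0.0984).

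Of 30 monocyte and recruited macrophage genes, 16 rose and 1 fell (16 and 0 scaled; median 1.07, and 1.15 scaled). The fall, Ifitm3, was lost without ob/ob library 1, 2 or 4 or wild type library 2, and 3 members fell without wild type library 1. Ccr2, the chemokine receptor by which monocytes leave the marrow, was at 30.4, 24.1, 16 and 29.0 FPKM against 7.88, 7.68, 4.76 and 4.96 FPKM and rose by 1.81 ± 0.23 (adjusted p = 0.00268). Chil3 (Ym1), a chitinase-like protein, was at 42.9, 21.2, 28.7 and 38.8 FPKM against 5.50, 2.23, 8.19 and 1.11 FPKM and rose by 2.87 ± 0.45 (adjusted p = 0.00579). Cx3cr1, the fractalkine receptor, rose by 1.59 ± 0.33 (adjusted p = 0.0164, and 0.0506 without wild type library 2), Ace by 1.91 and the locus that merges S100a4 with S100a3 and Gm42674 by 1.94. Ly6c2, the surface antigen of classical monocytes, rose by 1.31. Mgst1 and Hp, which are on this list, are also expressed by hepatocytes, and Mgst1 was highest in ob/ob library 2 (583 FPKM). The summed level of the list was 5334 to 6266 FPKM in ob/ob and 5507 to 6677 FPKM in wild type.

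**Figure D4:**
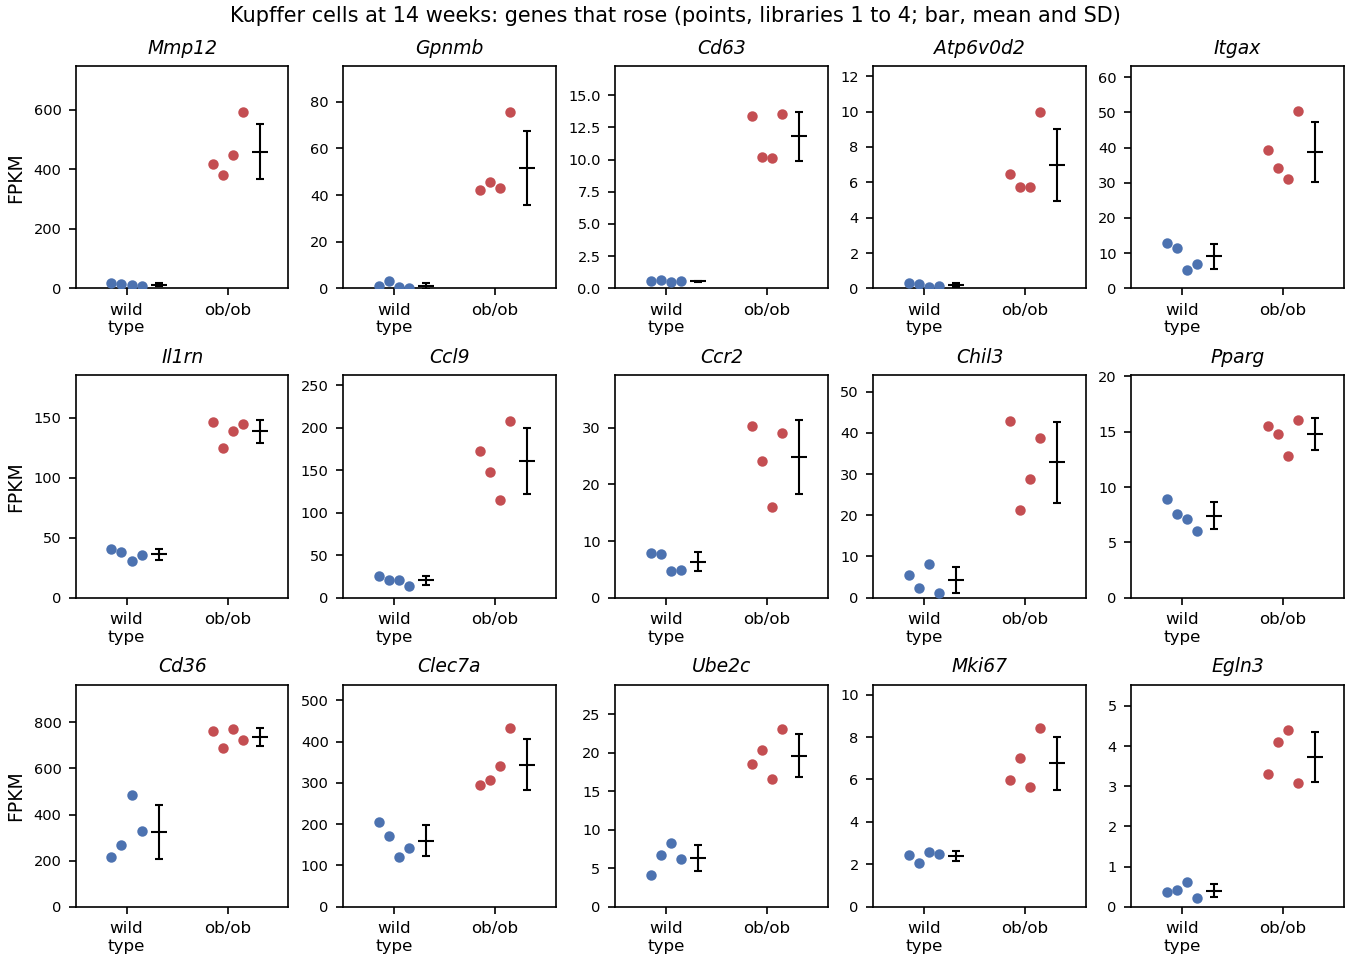
FPKM (y axis, from 0) of 15 genes that rose, in each wild type (blue) and ob/ob (red) library; the black bar is the mean with its SD (n = 4). The 4 ob/ob values lie above the 4 wild type values in all 15 genes.

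Secreted signals were mixed. Of 22 chemokines, 4 rose and 2 fell (5 and 2 scaled; 8 rose without wild type library 1). Ccl9, an attractant of CCR1-bearing myeloid cells, was at 172, 148, 115 and 208 FPKM in ob/ob and 25.7, 21.0, 20.8 and 13.5 FPKM in wild type and rose by 2.93 ± 0.22 (adjusted p = 0.000622). Its receptor Ccr1 rose by 1.76 ± 0.22 (adjusted p = 0.00271) from 1.23 ± 0.421 FPKM. Ccl5 rose by 1.23, Cxcl1, a neutrophil attractant, by 0.99, and Cxcr4, the receptor for the marrow chemokine CXCL12, by 1.94, while Cxcl13 and Ccl24 were the falls (Cxcl13 alone without ob/ob library 1 or wild type library 2). Ccl2, the monocyte attractant that CCR2 binds, was at 131, 125, 144 and 129 FPKM against 120, 105, 87.3 and 111 FPKM. Its groups did not overlap, and it passed with scaling (log2 change 0.41, adjusted p = 0.0215) and without wild type library 1 (adjusted p = 0.0428) but not in the deposited values (0.32 ± 0.10, adjusted p = 0.0764).

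Of 15 inflammatory cytokines and mediators, 5 rose and 2 fell under both scalings. Il1rn, the interleukin-1 receptor antagonist, was at 146, 125, 139 and 145 FPKM against 40.3, 38.1, 30.3 and 35.2 FPKM and rose by 1.92 ± 0.10 (adjusted p = 8.19e-05). Il6 was at 14.5, 17.4, 13.8 and 15.9 FPKM against 31.8, 22.1, 28.6 and 29.6 FPKM and fell by 0.82 ± 0.12 (adjusted p = 0.00472). Neither gene's groups overlapped, and both calls held in every omission of a library. Osm (oncostatin M) rose by 1.24 and Vegfa by 1.07, the latter not without ob/ob library 2 or 4 (adjusted p of 0.0550 and 0.0552). Ptgs2 (1.02, adjusted p = 0.0164) and Tnfsf9 (0.65, adjusted p = 0.0226) were the other rises. Tnf, Il1b and the anti-inflammatory Il10 did not pass. Tnf was at 78.7 ± 14.3 and 93.7 ± 11.5 FPKM (adjusted p = 0.244) and Il1b at 441 ± 48.5 and 556 ± 150 FPKM (adjusted p = 0.276). Il10 was at 80.3 ± 12.3 and 74.7 ± 15.6 FPKM (adjusted p = 0.67). With the endothelial score in the fit Il1b changed by -0.54 (adjusted p = 0.0169). The count of rises was 3 without ob/ob library 2.

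Genes of alternative activation, the interleukin-4 type response, split. Of 22 tested, 9 rose and 6 fell (9 and 4 scaled). Chil3, Clec7a, Pparg and Trem2 were among the rises and Klf4, Cd163, Ccl24 and Mrc1 among the falls. Arg1 (arginase) was at 2.93, 11.3, 5.53 and 4.40 FPKM against 1.98, 1.23, 2.45 and 0.945 FPKM, a change of 1.32 ± 0.34 (adjusted p = 0.0379) that became 0.04 with the hepatocyte score in the fit. Arginase is also a urea cycle enzyme of hepatocytes. Retnla (RELM alpha) had the opposite change of -1.77 ± 0.46 (adjusted p = 0.0401, and 0.0516 scaled), but wild type library 4 (1.40 FPKM) lay inside the ob/ob range of 0.516 to 2.07 FPKM. Arg1 lost its call in 4 and Retnla in 7 of the 8 omissions. The number of falls was 1 to 3 without ob/ob library 1, 2 or 4 or wild type library 2.

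Most proliferation genes rose. Of 33 tested, 21 rose and 0 fell (22 and 0 with scaling), 32 had a positive change and the median was 0.93 (0.98 scaled), and with 1 library left out 19 to 21 were called higher. Ube2c, a ubiquitin-conjugating enzyme of mitotic exit, was at 18.5, 20.3, 16.6 and 23.1 FPKM in ob/ob and 4.16, 6.74, 8.27 and 6.14 FPKM in wild type and rose by 1.51 ± 0.18 (adjusted p = 0.00215). Ccna2 (cyclin A2) was at 14.3, 15.6, 13.3 and 17.2 FPKM against 3.90, 4.49, 5.27 and 5.38 FPKM and rose by 1.49 ± 0.11 (adjusted p = 0.000622). Ccnb1 and Ccnb2, the mitotic cyclins, rose by 1.42 and 1.41, Birc5 (survivin) by 1.46, Kif20a, a kinesin of cytokinesis, by 1.23, Mki67, the marker of cycling cells, by 1.19 and Cdk1, the mitotic kinase, by 1.09. The groups overlapped in none of these 8 genes. Markers of B, T and NK cells, which may also cycle, were higher in ob/ob too, and their part in this result was not tested.

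The promoters of the rising proliferation genes were searched for TTTGAA, the core of the cell cycle homology region, and CCAAT, the box bound by NF-Y, on both strands. RefSeq promoters were given for 17 of the 21 genes. TTTGAA was in 7 of the 17 and CCAAT in 14, against 12.7% and 30.0% of all 27025 promoters of 200 bases. Birc5, Nusap1 and Tyms held neither. The following 6, which hold TTTGAA more often than the 17 do, are printed with the matches in capitals. Mki67, Cdk1 and Top2a were chosen after their values were seen. They lie at chr2:164769729-164769928 (Ube2c, plus strand), chr13:100786487-100786686 (Ccnb1), chr9:70421555-70421754 (Ccnb2), chr7:135716380-135716579 (Mki67), chr10:69352913-69353112 (Cdk1) and chr11:99024190-99024389 (Top2a), the last 5 on the minus strand of GRCm38.p6.
Ube2c: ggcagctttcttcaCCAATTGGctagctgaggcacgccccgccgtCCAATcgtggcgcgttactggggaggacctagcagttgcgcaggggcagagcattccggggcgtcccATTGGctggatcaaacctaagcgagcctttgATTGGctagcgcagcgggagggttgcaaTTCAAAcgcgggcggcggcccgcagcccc
Ccnb1: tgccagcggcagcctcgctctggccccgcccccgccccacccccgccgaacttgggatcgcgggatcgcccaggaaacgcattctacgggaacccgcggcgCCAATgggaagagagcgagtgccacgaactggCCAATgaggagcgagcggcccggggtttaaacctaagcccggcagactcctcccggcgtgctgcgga
Ccnb2: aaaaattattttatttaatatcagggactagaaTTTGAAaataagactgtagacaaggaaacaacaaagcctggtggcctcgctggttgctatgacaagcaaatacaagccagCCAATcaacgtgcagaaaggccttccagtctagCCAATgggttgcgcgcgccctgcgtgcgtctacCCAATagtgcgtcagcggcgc
Mki67: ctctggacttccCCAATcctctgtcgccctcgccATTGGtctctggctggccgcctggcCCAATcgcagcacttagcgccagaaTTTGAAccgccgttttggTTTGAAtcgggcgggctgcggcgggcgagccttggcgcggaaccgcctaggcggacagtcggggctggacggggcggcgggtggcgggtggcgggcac
Cdk1: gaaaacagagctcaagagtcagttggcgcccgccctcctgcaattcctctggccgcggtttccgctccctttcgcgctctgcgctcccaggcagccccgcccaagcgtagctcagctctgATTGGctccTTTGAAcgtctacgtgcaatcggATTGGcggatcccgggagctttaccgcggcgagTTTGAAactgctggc
Top2a: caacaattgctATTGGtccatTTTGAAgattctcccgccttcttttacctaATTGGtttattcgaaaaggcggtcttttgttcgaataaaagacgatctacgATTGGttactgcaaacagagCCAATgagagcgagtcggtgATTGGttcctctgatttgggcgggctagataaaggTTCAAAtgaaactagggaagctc
A search, on both strands, of the same window in the 12 rising lipid-associated macrophage genes with a RefSeq promoter found CACGTG in 0 (5.28% of all promoters) and CATGTG in 1, Cd9 (9.7% of all).
Top2a, the mitotic topoisomerase, shares its locus in the table with the predicted gene Gm23451 and rose by 1.23. Ccnb1 holds CCAAT at 2 places and no TTTGAA in this window, and Mki67, Cdk1 and Top2a hold TTTGAA at 2 places each.

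In the antioxidant response, named in the title of the series, genes were called in both directions. NRF2, encoded by Nfe2l2, switches on detoxifying and glutathione genes, and KEAP1 marks it for degradation. Nfe2l2 was at 127, 132, 136 and 131 FPKM in ob/ob and 157, 131, 127 and 129 FPKM in wild type, with overlap and a change of -0.05 ± 0.08 (adjusted p = 0.735; 0.04 scaled). Keap1 was at 16.3 ± 0.813 and 18 ± 0.681 FPKM (adjusted p = 0.181). Of 41 NRF2 target genes, 3 rose and 4 fell (6 and 4 scaled), and the median change was 0.04 (0.12 scaled). Over all loci 6.57% rose and 6.76% fell (7.92% and 3.17% scaled). The targets Nqo1, Hmox1 and Gclm were not among those called. Nqo1 was at 2.31 ± 0.731 and 1.78 ± 0.561 FPKM (adjusted p = 0.45), and Hmox1, haem oxygenase 1, at 876 ± 120 and 975 ± 119 FPKM (adjusted p = 0.452). The Gclm locus, for glutathione synthesis, was at 65.6 ± 3.70 and 68.1 ± 11.0 FPKM (adjusted p = 0.836), with a change of -0.04 that became 0.04 with scaling.

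The targets that fell were Osgin1, Gstp1, Cbr3 and Blvrb. Osgin1, an oxidative stress-induced growth inhibitor, was at 44.0, 43.9, 44.9 and 45.4 FPKM against 66.1, 79.9, 78.1 and 64.1 FPKM and fell by 0.68 ± 0.09 (adjusted p = 0.00271). Gstp1, a glutathione transferase, was at 15.3, 20.5, 19.3 and 17.2 FPKM against 30.0, 23.4, 25.9 and 25.9 FPKM and fell by 0.52 ± 0.11 (adjusted p = 0.0175, and 0.051 without ob/ob library 4). Neither pair of groups overlapped. Those that rose were Mgst1, Gstm3 and Srxn1, and Gstm3 changed by -0.04 in place of 1.72 with the hepatocyte score in the fit. Srxn1 (sulfiredoxin), at 19.3 ± 1.22 and 13.6 ± 2.59 FPKM, rose by 0.50 ± 0.13 (adjusted p = 0.042) but not in 6 of the 8 omissions (adjusted p of 0.0665 to 0.0999). The counts of falls and of rises dropped to 2 and to 1 when some libraries were left out: ob/ob 1 or 2 or wild type 2 or 4 for the falls, ob/ob 3 or 4 or wild type 2 or 4 for the rises.

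Of 37 other antioxidant enzymes, 3 fell and 0 rose (2 and 1 scaled), and 5 fell without wild type library 1. Over all loci tested 6.76% fell and 6.57% rose (3.17% and 7.92% scaled). The median of these enzymes was -0.02, beside -0.091 over all loci. Beside Txnip, Msrb2, a mitochondrial methionine sulfoxide reductase, was at 1.95, 2.52, 2.16 and 1.91 FPKM against 4.46, 3.39, 3.95 and 3.29 FPKM and fell by 0.60 ± 0.11 (adjusted p = 0.00875). Of 18 NRF2 regulators, 2 fell (1 scaled), of which Sesn2, a stress-induced leucine sensor, was at 14.9 ± 0.732 and 22.6 ± 5.11 FPKM (log2 change -0.54, adjusted p = 0.0338) and lost its call in 6 omissions. With any 1 of the 4 ob/ob libraries or wild type library 2 left out, 0 of the 18 regulators fell, and 1 did without wild type library 3 or 4. Of the 7 tested subunits of the NADPH oxidase, the phagocyte source of superoxide, 0 passed under either scaling (median -0.08).

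Lipid lists differed in how many members rose. Of 26 genes of lipid uptake and storage, 7 rose and 0 fell (8 and 0 scaled; 4 rose without wild type library 4), and of 17 genes of fatty acid synthesis, 7 rose and 0 fell (8 and 0 scaled; 4 without wild type library 2). In fatty acid oxidation and peroxisome genes 4 of 31 rose (7 scaled), and 0 fell. Hilpda, a lipid droplet protein that inhibits lipolysis, was at 141, 149, 195 and 265 FPKM in ob/ob and 93.0, 73.7, 79.5 and 58.1 FPKM in wild type and rose by 1.27 ± 0.22 (adjusted p = 0.00827). Cd36 and Fabp4 rose with it, and none of the 3 was highest in ob/ob library 2, the library with the most hepatocyte RNA. Other risers were highest there. Scd1, stearoyl-CoA desaturase, was at 62.5, 226, 160 and 162 FPKM against 35.0, 15.9, 11.4 and 25.5 FPKM and rose by 2.72 ± 0.44 (adjusted p = 0.00663), and its change with the hepatocyte score in the fit was 1.21. Dgat2, which makes triglyceride, was at 5.71, 16.3, 6.82 and 8.10 FPKM against 2.34, 1.63, 1.58 and 1.30 FPKM and rose by 1.83 ± 0.28 (0.62 with that score). The rise of Elovl5, a fatty acid elongase, of 0.83 became 0.34. Hadha, a mitochondrial beta-oxidation enzyme, rose by 0.37 ± 0.06 (adjusted p = 0.0074), from 118 ± 2.77 to 153 ± 6.50 FPKM.

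Of 28 genes of glycolysis and hypoxia, 10 rose and 1 fell (12 and 0 scaled; median 0.23, and 0.31 scaled). The fall, Egln1, was lost without ob/ob library 1, 2 or 4 or wild type library 2 or 3. Egln3, an oxygen-sensing hydroxylase that HIF induces, was at 3.31, 4.09, 4.40 and 3.09 FPKM against 0.375, 0.426, 0.606 and 0.212 FPKM and rose by 1.75 ± 0.12 (adjusted p = 0.000587). Egln3 was under 1 FPKM in every wild type library and passed the filter only through its ob/ob level. Ddit4 (REDD1), an inhibitor of mTORC1, was at 26.6, 19.5, 27.4 and 25.3 FPKM against 4.22, 8.13, 9.85 and 7.60 FPKM and rose by 1.64 ± 0.22 (adjusted p = 0.00324). The groups were separate in both. Ankrd37, a HIF target, rose by 1.36, Slc16a3, the lactate exporter, by 1.05, and the locus of Pkm, pyruvate kinase, by 0.65 from 140 ± 13.6 FPKM. With the hepatocyte score in the fit the changes of Egln3, Ddit4 and Ankrd37 were 1.63, 2.46 and 1.87 with adjusted p of 0.131, 0.0806 and 0.158.

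**Figure D5:**
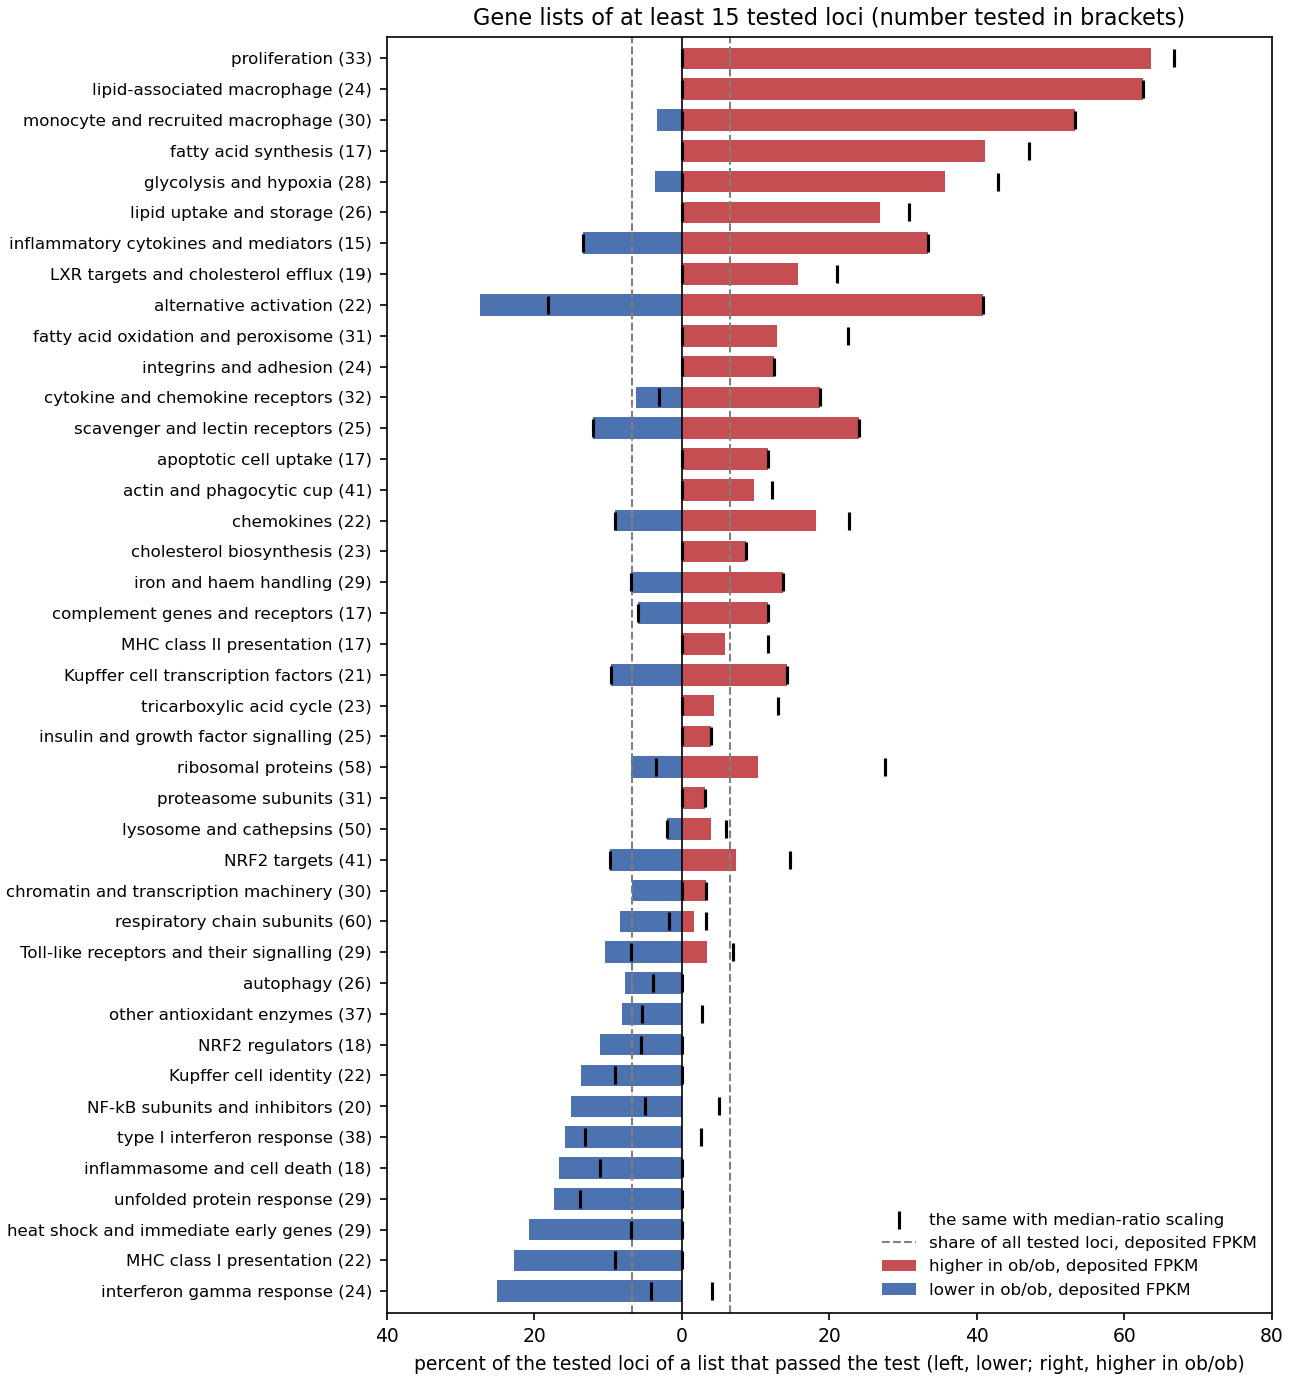
Bars give, for each list of at least 15 tested loci other than markers of other cell types, the percent of those loci that passed the test with a higher (red, right) or lower (blue, left) level in ob/ob; black ticks give the same with median-ratio scaling and dashed lines the shares over all tested loci (6.57% and 6.76%). The proliferation, lipid-associated macrophage and monocyte lists reach far beyond the right line, while no list reaches as far beyond the left line as these do beyond the right.

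Markers of several further cell types rose, though not of all. Of 15 dendritic cell genes, 4 rose and 1 fell (median 0.08), and both basophil and mast cell genes tested had a negative change that did not pass (median -0.59). Of 15 B and plasma cell genes, 9 rose and 0 fell (5 rose without ob/ob library 1), and their summed level was 260 to 354 FPKM against 125 to 217 FPKM. Ighd, the heavy chain of naive B cells, was at 19.4, 22.6, 15.2 and 15 FPKM against 5.13, 6.73, 7.32 and 4.64 FPKM and rose by 1.45 ± 0.17 (adjusted p = 0.00215). Of 9 T and NK cell genes, 4 rose (2 without ob/ob library 2, 3 or 4, 7 without wild type library 3), with sums of 66.0 to 106 and 42.3 to 63.3 FPKM. Of 10 neutrophil genes, 5 rose (2 or 3 without ob/ob library 1, 2 or 4 or wild type library 3 or 4), with sums of 140 to 203 and 71.4 to 177 FPKM. Of 6 erythroid genes, 5 rose, with sums of 206 to 398 and 51.7 to 70.8 FPKM. Hba-a1, an alpha-globin gene with a near-identical copy, rose by 3.05 ± 0.28 (adjusted p = 0.00132). Selp (P-selectin), a platelet and endothelial gene, was at 28.4, 25.7, 16.9 and 21.6 FPKM against 5.24, 2.71, 2.53 and 1.61 FPKM and rose by 2.64 ± 0.26 (adjusted p = 0.00133).

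Mmp12 and Gpnmb were 2 of the 10 largest rises without overlap. Of the other 8, Cyp3a11 (log2 change 3.48), Apob (3.31), Hpx (3.14) and Apoa2 (3.08) are on the hepatocyte list, and with the hepatocyte score in the fit their changes were 1.30, 1.66, 1.30 and 1.44. H2-Q10 (3.25), Hsd17b13 (3.24), Apoa4 (5.79) and Cyp4a14 (4.03), which are not on that list, are also known from liver cells. Apoa4, an apolipoprotein of the fatty liver, was at 43.2, 151, 64.2 and 105 FPKM against 0.841, 0.694, 0.208 and 0.310 FPKM, and Cyp4a14, a PPAR alpha-induced omega-hydroxylase, at 13.3, 34.0, 14.7 and 11.7 FPKM against 0.193, 0.119, 0.0185 and 0.0404 FPKM. Alb (albumin), chosen after its values were seen, was at 2176, 4745, 2059 and 1990 FPKM against 581, 225, 223 and 470 FPKM. The mean ratio was 7.32 for Alb, 177 for Apoa4 and 199 for Cyp4a14. Apoa4 and Cyp4a14 were under 1 FPKM in every wild type library and passed the filter only through their ob/ob level. Their ratios divide by values near the floor and are not comparable with that of Alb. Among endothelial genes, 2 fell and 1 rose (9 fell without wild type library 1). Nrp1, in a locus with the microRNA Mir1903, was at 49.7, 48.9, 40.2 and 27.9 FPKM against 122, 93.4, 93.9 and 84.8 FPKM and fell by 1.24 ± 0.19 (adjusted p = 0.00548), without overlap. Igfbp7, a secreted growth factor-binding protein abundant in sinusoidal endothelium, was at 523, 507, 400 and 186 FPKM against 336, 830, 964 and 693 FPKM, with overlap and no call (log2 change -0.81 ± 0.41, adjusted p = 0.222), and its change was -0.14 with the endothelial score in the fit.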

How the data were processed

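Per the labels' protocols, TRIzol-extracted RNA went into stranded mRNA libraries (TruSeq) for Illumina sequencing. Mouse build mm10 and the tools Cufflinks, STAR, cutadapt and bcl2fastq are named, without versions, per the submitters' processing notes. The authors deposited FPKM values, 1 per locus and library, with no counts, so the depth is unknown and its precision cannot be computed. Low values gave no whole-read steps. The table holds 0 columns without a sample and 0 values of 0.

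From the deposited FPKM of the 14 week table, log2(FPKM + 1) of loci averaging 1 FPKM or more was tested with limma 3.58.1 (R 4.3.3), with a variance trend and Benjamini-Hochberg adjustment over all tested loci at 0.05. Each gene list (55 in all, 1263 of 1307 symbols found) is described by counts and medians. Named are the 10 largest rises and falls without overlap, the 20 most abundant modest falls that passed both scalings, up to 6 called members of each list, and a fixed set of macrophage and NRF2 genes. Some are left out, and those added later are marked. The members, lists and rule were chosen with earlier results of these data known. Alternatives were median-ratio scaling, a pseudocount of 0.1, no filter, a minimum of 5 FPKM, no trend, a replicate block, the hepatocyte score, each library left out and, added after seeing the data, the endothelial score and both outlying libraries left out. The fit was checked on simulated data. Coordinates outside promoters are from GENCODE M21.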

Additional observations from a re-analysis of the deposited data

Results flagged for a closer look

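In groups of 4 libraries, a value was noted when its gap to the nearest library took up more of the range than Dixon's critical value allows, which chance gives in about 1 of 20 groups. Of 336 groups tested (the genes and marker scores of the report in each genotype), 21 passed. Among them, ob/ob library 2 was high in the hepatocyte score (6.31, mean log2 level of the list), Alb (4745 FPKM), Mgst1 (583 FPKM) and Atf5 (15 FPKM), and low in Sesn2 and Slc16a3 (13.8 FPKM each). Wild type library 1 was low in the endothelial score (5.97), Maf (69.2 FPKM), Cdk1 (7.64 FPKM) and Vegfa (0.618 FPKM), and high in Folr2 (1284 FPKM), Nfe2l2 (157 FPKM) and Trem2 (31.3 FPKM). ob/ob library 4 was high in Gpnmb (75.6 FPKM) and low in Maf (40.8 FPKM) and Nlrc5 (14.6 FPKM). The remaining values were Ifi205 in ob/ob library 1 (8.19 FPKM) and wild type library 3 (9.19 FPKM), Fcgrt in wild type library 3 (272 FPKM), Psmb9 in wild type library 2 (138 FPKM) and Retnla in wild type library 4 (1.40 FPKM).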

How the results depend on the processing

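The counts of 1548 calls, 763 rises, 785 falls and 754 falls under 2-fold moved by over 1.5 times as follows, and the cause was not tested except where fewer loci or libraries entered. Median-ratio scaling left 368 falls (351 modest), and a minimum of 5 FPKM left 927 calls and 362 rises. The replicate block left 512 calls (411 rises, 101 falls, 88 modest). The labels do not say that replicate numbers pair libraries. Same-numbered libraries deviated together in 0 of 4 pairs (correlations of -0.475 to -0.075), and a factor shared by number was not tested otherwise. The hepatocyte score left 8 calls (6 rises, 2 falls, 0 modest), and the endothelial score gave 2660 calls, 1639 falls and 1598 modest falls. Omitting 1 library gave 942 to 1786 calls, 566 to 846 rises, 365 to 940 falls and 347 to 857 modest falls. Without ob/ob library 2 and wild type library 1 together, 1356 loci passed (748 rises, 608 falls). A pseudocount of 0.1, no filter and no variance trend kept these counts within 1.5 times. The number of falls of at least 2-fold was not among them.

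Signs turned for 10 named genes. With the hepatocyte score these were Adgre1 (-0.04), Gstm3 (-0.04) and Il10 (-0.19), and with the endothelial score Adgre1 (-0.19), Cd5l (-0.05) and Il10 (-0.05). With scaling they were Gclm (0.04), Marco (0.07), Nfe2l2 (0.04) and Tlr4 (0.05). Omitting 1 library gave -0.14 to 0.31 for Adgre1 (lowest without wild type library 3), -0.12 to 0.03 for Gclm, -0.22 to 0.14 for Marco, -0.08 to 0.02 for Nfe2l2 and -0.16 to 0.11 for Tlr4. Among the positive ones, the change without wild type library 1 was 0.02 for Gclm and Nfe2l2, 0.12 for Marco and 0.11 for Tlr4. Without wild type library 4 it was 0.03, 0.14 and 0.00 for Gclm, Marco and Tlr4, and without ob/ob library 2 it was 0.02 for Tlr4. With both outlying libraries omitted the changes were 0.08 for Csf1r, 0.12 for Marco, 0.02 for Nfe2l2, 0.17 for Tlr4 and 0.03 for Vsig4. Only Gstm3 had passed the test. Depth was unknown, and 4 libraries a group limit precision.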

Other observations

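Counts in the housekeeping lists depended on scaling. Of 58 ribosomal protein genes, 6 rose and 4 fell in the deposited values, beside 6.57% and 6.76% of all loci tested. With median-ratio scaling 16 rose and 2 fell, beside 7.92% and 3.17% of all loci (median 0.14, and 0.22 scaled). Rplp0, the stalk protein of the large subunit, was at 248, 230, 243 and 260 FPKM in ob/ob and 189, 199, 184 and 181 FPKM in wild type and rose by 0.38 ± 0.07 (adjusted p = 0.0102), while Rps29, of the small subunit, was at 1.77, 1.64, 1.70 and 1.39 FPKM against 2.82, 2.35, 3.06 and 2.88 FPKM and fell by 0.52 ± 0.09 (adjusted p = 0.00778). The ribosomal rises numbered 2 or 3 without ob/ob library 1, 3 or 4 or wild type library 1, 2 or 4, and the falls 1 or 2 without ob/ob library 1, 2 or 4 or wild type library 2, 3 or 4. Of 60 nuclear-encoded respiratory chain genes, 5 fell and 1 rose (1 and 2 scaled), and 0 fell without ob/ob library 1 or 2 or wild type library 2 or 4, 1 without ob/ob library 4 and 3 without wild type library 3.

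Of 50 lysosome and cathepsin genes, 2 rose and 1 fell (3 and 1 scaled; median 0.03, and 0.12 scaled). The rises numbered 6 without wild type library 1 and 1 without any other library. Of 26 autophagy genes, 2 fell and 0 rose, beside 6.76% and 6.57% of all loci tested. The list had 23 negative changes (1 fell and 20 were negative when scaled). Without any 1 of the 4 ob/ob libraries or wild type library 2 or 4, 1 fell.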
